A study of Homo sapiens with 6 samples.

Results

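The amino acid transporters of the solute carrier (SLC) families 1, 3, 6, 7, 36, 38 and 43 were measured in a pair of cell lines, PC-3/Mc and, for comparison, PC-3/S. By their names both belong to PC-3, an established human line grown from a bone metastasis of a prostate carcinoma. The members are all probe sets annotated with a single gene symbol of these families, 138 of the 54675 probe sets on the array, and they stand for 56 of the 19775 named genes. Each line was measured on 3 one-colour Affymetrix arrays from total RNA of subconfluent cells, and the labels give no treatment, transgene or other difference between the lines and do not say how either was derived. The labels call the arrays of a line biological replicates without naming separate cultures or passages, so p-values rest on array-to-array spread alone, and that spread may be technical. Unless stated otherwise, each mean ± SD and each difference ± SE rests on n = 3 arrays per line, values are on the log2 scale, and a difference is the PC-3/Mc mean less the PC-3/S mean.

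Amino acids cross membranes mainly through carriers, and cells combine several kinds. Sodium-coupled carriers of SLC1, SLC6 and SLC38 pump amino acids in against their gradient, exchangers such as SLC1A5 and the SLC7 light chains then trade them for others, and SLC43 carriers let large neutral amino acids flow down their gradient. SLC7 light chains of the exchangers reach the surface only when bound to a heavy chain of SLC3. In carcinoma cells, glutamine uptake, exchange of leucine for glutamine, and cystine uptake by these carriers feed protein synthesis, the growth kinase complex mTORC1 and glutathione.

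The arrays of a line were alike across probe sets (r = 0.995 to 0.997), and arrays of different lines less so (0.949 to 0.953). A reading of up to 5.18 is treated as possible background, because CTNNA1, whose deletion in PC-3 is well known, reached that value. That reference was chosen after its values were seen, and KLK3, the prostate-specific antigen gene, listed with CTNNA1 as lost or silent in PC-3, read higher, at 6.07 to 6.84 over all 6 arrays. Background may therefore exceed 5.18 for some probe sets, and folds of genes whose dimmer line read under 6.84, such as SLC7A2 and SLC7A8, may be too small. Of 5 epithelial markers 0 lay under it in both lines, with list means per array of 10.6 to 10.7 in PC-3/Mc and 8.41 to 8.5 in PC-3/S; E-cadherin (CDH1) lay under it in PC-3/S alone. Of the leukocyte markers 3 of 4 lay under it in both lines, with list means of 4.40 to 4.58 in PC-3/Mc and 4.35 to 4.59 in PC-3/S. The fibroblast list differed more, at 6.02 to 6.18 against 5.09 to 5.28, with 2 of 6 under the background reading in both lines, as did the endothelial list, at 4.98 to 5.14 against 5.39 to 5.54, with 2 of 4 under it. The basal prostate list read 4.35 to 4.63 against 4.6 to 4.82, with 1 of 2 measured genes under it, and the neural and glial list 5.94 to 6.04 against 5.60 to 5.86, with 3 of 5 under it. Within lists, called genes went both ways. Of the fibroblast markers COL1A2 (4.12), LUM (1.81) and PDGFRB (0.35) were higher in PC-3/Mc, COL1A1 (-0.28) and DCN (-0.44) lower, and PDGFRA not called. Of the endothelial markers KDR was lower (-2.17), PECAM1 higher (0.60), and CDH5 and VWF not called. The part of these marker genes in the transporter differences was not tested. These are bulk samples, so fewer cells with a transcript and less of it per cell cannot be told apart.

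Transporters went both ways between the lines. In PC-3/Mc, 12 of the 56 genes were higher, 8 lower and 36 not called at an adjusted p under 0.05 (limma with Benjamini-Hochberg adjustment over all genes). Over all genes 23.2% were called higher and 22.7% lower, together 45.9%, against 35.7% of the members. Differences of at least 2-fold were called for 6 members higher and 5 lower, or 19.6% of the members, against 11.5% of all genes (5.88% higher and 5.58% lower). SLC1A4 and SLC38A6 lay just past 2-fold, and the count of 5 became 3 without PC-3/Mc replicate 3. The median difference was 0.07 over the members and -0.03 over all genes. For 24 members (42.9%) the ranges of the lines did not overlap, against 53.1% of all genes.

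Of the 56 genes, 20 stayed at or under 5.18 in both lines, against 6881 of all 19775 genes. By family these were 8 of 18 in SLC6, 6 of 13 in SLC7 and 4 of 11 in SLC38. In SLC1 it was 1 of 7 and in SLC3 1 of 2, against 0 of 2 in SLC36 and 0 of 3 in SLC43. In SLC1, which carries glutamate and small neutral amino acids, 2 of 7 genes were higher and 2 lower. In SLC6, mostly sodium- and chloride-dependent carriers of neurotransmitters, osmolytes and neutral amino acids, 3 of 18 were higher and 1 lower (3 lower without PC-3/Mc replicate 3 and 2 without PC-3/S replicate 3). In SLC7, the cationic carriers and exchanger light chains, 3 of 13 were higher and 0 lower. SLC38, sodium-coupled or lysosomal carriers of neutral amino acids, had 3 of 11 higher and 3 lower, and SLC43 had 1 of 3 in each direction. Of the SLC36 genes 1 of 2 was lower, and of the SLC3 heavy chains 0 of 2 were called. The family medians lay between -0.15 in SLC36 and 0.17 in SLC7. Of all genes 45.9% were called, 23.2% higher and 22.7% lower. The share called was 57.1% in SLC1, 22.2% in SLC6, 23.1% in SLC7 and 54.5% in SLC38. In SLC43 it was 66.7%, in SLC36 50% and in SLC3 0%, from 2 or 3 genes each. The called SLC7 genes were all higher, and their share lay close to that of all genes called higher.

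**Figure D1:**
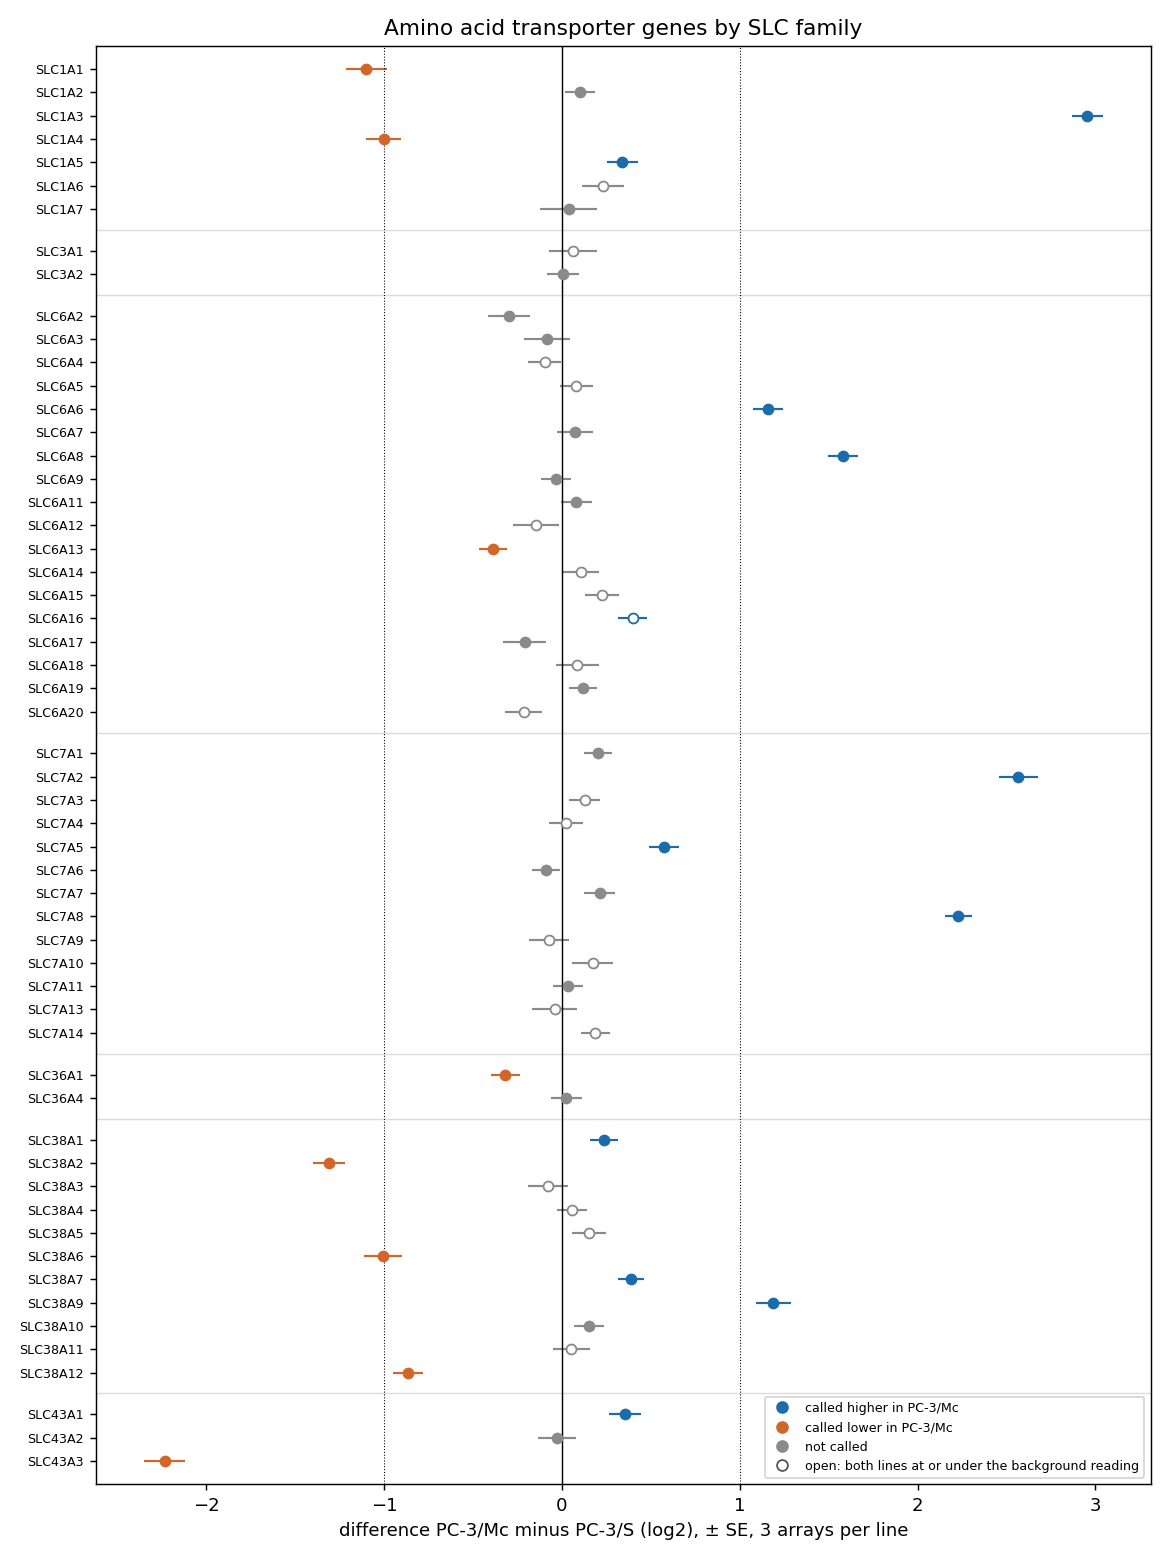
Difference between the lines on the log2 scale for each of the 56 transporter genes, grouped by family, as points with SE over 3 arrays per line. Most genes lie close to 0, and 11 lie beyond the dotted lines that mark 2-fold, 6 towards PC-3/Mc and 5 towards PC-3/S; open points stayed at or under the background reading in both lines.

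**Figure D2:**
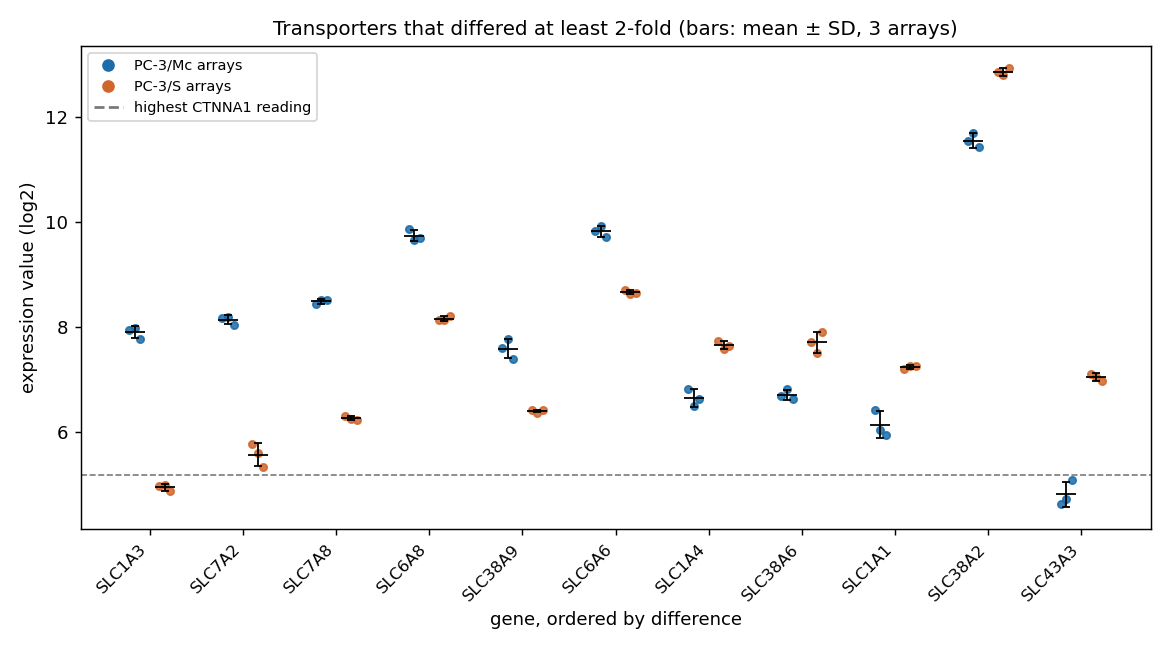
Expression values on the log2 scale of the 11 transporters that differed at least 2-fold, each array as a point with the mean ± SD of 3 arrays as a bar. Arrays of the lines do not overlap for any of the 11, and SLC1A3 in PC-3/S and SLC43A3 in PC-3/Mc lie under the dashed background reading of 5.18.

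Among carriers of glutamate and aspartate, SLC1A3 and SLC1A1 differed in opposite directions. SLC1A3 encodes the glutamate carrier EAAT1, best known from astrocytes, and read 7.94, 7.97 and 7.76 on the PC-3/Mc arrays against 4.96, 4.98 and 4.86 in PC-3/S. All PC-3/S arrays lay under the background reading and all PC-3/Mc arrays far above it, which gives a difference of at least 6.56-fold (measured difference 2.96 ± 0.09, adjusted p = 7.62e-10 by limma). The other SLC1A3 probe set stayed under background in both lines, and averaging both gave 1.59. SLC1A1 encodes EAAT3, a carrier of glutamate and cysteine in neurons and epithelia. It read 6.42, 6.04 and 5.93 in PC-3/Mc and 7.19, 7.25 and 7.25 in PC-3/S, lower on every PC-3/Mc array (-1.10 ± 0.12, adjusted p = 1.62e-05 by limma). Its second probe set differed by -0.64. SLC1A2, SLC1A6 and SLC1A7, known from glia, cerebellum and retina, were not called, with differences of 0.04 to 0.23.

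Upstream sequence is shown for SLC1A3, which had the largest difference of all members, from the RefSeq promoter table (GRCh38.p14), as the 250 bases before the most upstream of its 3 listed starts. Capitals mark a match to TGATGNAAN, letters of the amino acid response element bound by ATF4 and its partners, here 220 bases before the start.
SLC1A3 (chr5:36596338-36596587, + strand): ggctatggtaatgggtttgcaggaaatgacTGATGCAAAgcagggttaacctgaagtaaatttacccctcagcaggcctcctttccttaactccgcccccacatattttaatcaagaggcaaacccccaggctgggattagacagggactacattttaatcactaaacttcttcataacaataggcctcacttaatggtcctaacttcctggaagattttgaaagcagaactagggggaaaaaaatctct
Windows were found for 42 of the 56 members, 64 windows in all, and each was searched on both strands for this motif, for the E-box CACGTG bound by MYC and its partners, and for the antioxidant response element TGACNNNGC. The amino acid response element was present in 2 of 64 member windows (3.12%), those of SLC1A3 and SLC1A5, against 3.13% of all 35116 windows. The E-box was present in 9 (14.1%) against 6.34%, those of SLC1A5, SLC1A7, SLC6A16, SLC7A5, SLC7A7, SLC7A8, SLC36A1, SLC38A5 and SLC43A1, and the antioxidant response element in 6 (9.38%) against 10.9%. Of the 9 genes with an E-box, SLC1A5, SLC6A16, SLC7A5, SLC7A8 and SLC43A1 were called higher in PC-3/Mc. Over all 56 members 12 were called higher, and over all genes 23.2%. The share called higher among all genes with an E-box was not counted. SLC6A16 stayed under background in both lines, and SLC1A5, SLC7A8 and SLC43A1 also have listed windows without an E-box. SLC36A1, with E-boxes 43 and 8 bases before a start, was called lower, and SLC1A7, SLC7A7 and SLC38A5 were not called. Such matches describe the letters of these windows only.

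The sodium-dependent exchangers of small neutral amino acids also parted. SLC1A4 (ASCT1), which carries alanine, serine and cysteine, read 6.81, 6.48 and 6.63 in PC-3/Mc and 7.72, 7.57 and 7.63 in PC-3/S, with no overlap (-1.0 ± 0.10, adjusted p = 7.48e-06 by limma). All 5 of its probe sets were lower in PC-3/Mc, by differences of -1.21 to -0.37. The weakest was the only one whose name does not end in _x_at or _s_at, and it stayed under background in both lines. SLC1A5 (ASCT2), the main glutamine exchanger of many tumor cells, was higher on every PC-3/Mc array, at 8.45, 8.39 and 8.56 against 8.19, 8.01 and 8.17, a 1.27-fold difference (0.34 ± 0.09, adjusted p = 0.00692 by limma).

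For the heterodimeric exchangers, 2 light chains were higher in PC-3/Mc, while the heavy chain was not called. SLC3A2, the heavy chain known as 4F2hc or CD98, read 9.67, 9.62 and 9.62 in PC-3/Mc and 9.76, 9.47 and 9.66 in PC-3/S, and the ranges overlapped (0.01 ± 0.09, adjusted p = 0.953 by limma). Its light chain SLC7A5 (LAT1), which takes up leucine and other large neutral amino acids in exchange for glutamine, read 10.30, 10.12 and 10.29 in PC-3/Mc against 9.70, 9.64 and 9.64 in PC-3/S. That difference was 1.49-fold (0.57 ± 0.08, adjusted p = 0.000152 by limma). SLC7A8 (LAT2), an exchanger of broader range known from kidney and gut, read 8.43, 8.51 and 8.51 against 6.29, 6.25 and 6.23. It was 4.69-fold higher in PC-3/Mc (2.23 ± 0.07, adjusted p = 2.2e-09 by limma), and all 5 of its probe sets were called higher, by 1.74 to 3.05.

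SLC7A11 (xCT), the light chain that imports cystine for glutathione, read 9.49, 9.41 and 9.34 in PC-3/Mc and 9.48, 9.31 and 9.35 in PC-3/S, and the lines overlapped (0.04 ± 0.08, adjusted p = 0.766 by limma). The dimmest of its 3 probe sets was called higher in PC-3/Mc by 0.30. SLC7A6, an exchanger of cationic for neutral amino acids, read 8.12, 8.01 and 8.0 in PC-3/Mc and 8.16, 8.06 and 8.17 in PC-3/S and was not called (-0.09 ± 0.08, adjusted p = 0.413 by limma). Its relative SLC7A7 lay close to background at 5.37, 5.43 and 5.36 in PC-3/Mc and 5.21, 5.29 and 5.03 in PC-3/S. It was not called as deposited (0.21, adjusted p = 0.0733 by limma) but passed when arrays were quantile-normalized (0.26, adjusted p = 0.0213 by limma) or centred on their medians (0.26, adjusted p = 0.0316 by limma). SLC7A10, SLC7A9 and SLC7A13 stayed under background in both lines, as did SLC3A1, the heavy chain that pairs with SLC7A9 and SLC7A13 in kidney.

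The change of each light chain was set against that of SLC3A2 on the same arrays. Relative to SLC3A2, SLC7A8 differed by 2.22 ± 0.09 and SLC7A5 by 0.57 ± 0.09, and each had a two-sided exact permutation p = 0.1, the smallest that 3 against 3 arrays allow (adjusted p = 0.3 over 6 light chains). For SLC7A11 the relative change was 0.03 ± 0.05 and for SLC7A6 -0.10 ± 0.06 (exact permutation p = 0.7 and 0.2). The 250 bases before the single listed start of SLC7A5 are shown because they hold an E-box, in capitals, 130 bases before the start.
SLC7A5 (chr16:87869508-87869757, - strand): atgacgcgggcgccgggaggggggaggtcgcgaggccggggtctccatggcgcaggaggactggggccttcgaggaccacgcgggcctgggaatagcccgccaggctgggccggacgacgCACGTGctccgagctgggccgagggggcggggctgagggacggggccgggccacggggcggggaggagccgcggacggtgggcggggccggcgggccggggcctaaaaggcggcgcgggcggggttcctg

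**Figure D3:**
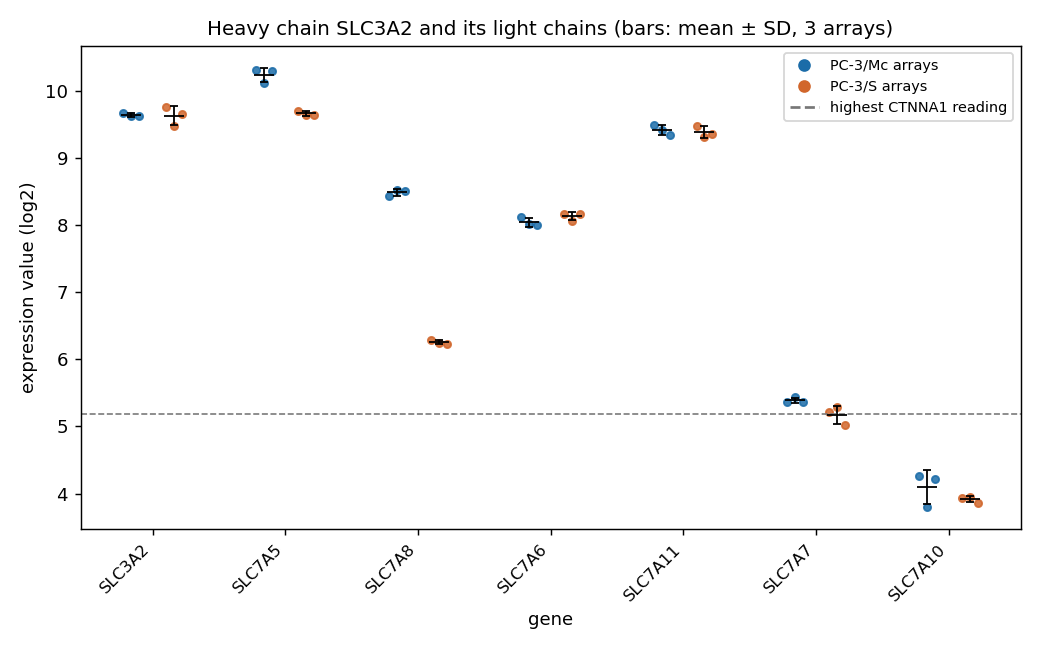
Expression values on the log2 scale of the heavy chain SLC3A2 and 6 light chains, each array as a point with the mean ± SD of 3 arrays as a bar. SLC3A2, SLC7A6 and SLC7A11 overlap between the lines, SLC7A5 and SLC7A8 lie higher on every PC-3/Mc array, and SLC7A10 lies under the dashed background reading of 5.18.

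The cationic carriers of SLC7 import arginine, lysine and ornithine without a heavy chain. SLC7A2 (CAT2) read 8.17, 8.18 and 8.03 in PC-3/Mc and 5.75, 5.60 and 5.33 in PC-3/S, 5.92-fold higher in PC-3/Mc with a wide gap between the lines (2.57 ± 0.11, adjusted p = 1.46e-08 by limma). Its other probe sets, both at or under background, differed by 0.87 and -0.02, and the mean of all 3 gave 1.14. SLC7A1 (CAT1), the widespread arginine carrier, read 9.95, 9.86 and 9.87 against 9.77, 9.62 and 9.68. The lines did not overlap and 2 of its 5 probe sets were called higher, but for the brightest the adjusted p of 0.0568 by limma missed the threshold (0.20 ± 0.08). It was called when the brightest probe set of plain _at type stood for the gene (0.45, adjusted p = 0.00225 by limma), and over all alternatives its adjusted p ran from 0.00217 to 0.334. SLC7A3, SLC7A4 and SLC7A14 stayed under background in both lines.

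In SLC6, the carriers of taurine and creatine were the only genes called at least 2-fold. SLC6A8, the creatine carrier, read 9.86, 9.65 and 9.69 in PC-3/Mc and 8.12, 8.13 and 8.20 in PC-3/S, 2.99-fold higher (1.58 ± 0.08, adjusted p = 7.45e-08 by limma). All 3 of its probe sets were higher, by 1.37 to 1.68. Near-identical copies of this gene exist, so its readings are uncertain in part: of 3 further probe sets annotated to SLC6A8 together with its pseudogenes, which are no members, 1 differed by 1.30 ± 0.09 and the others read 5.09 and 5.23 in PC-3/Mc and 5.02 and 5.15 in PC-3/S. SLC6A6, the taurine carrier, read 9.81, 9.92 and 9.70 in PC-3/Mc and 8.69, 8.62 and 8.65 in PC-3/S, higher on every PC-3/Mc array (1.16 ± 0.08, adjusted p = 7.62e-07 by limma). Of its 5 probe sets 3 were called higher and 2 were not (0.07 and 0.09).
SLC6A8 (chrX:153687676-153687925, + strand): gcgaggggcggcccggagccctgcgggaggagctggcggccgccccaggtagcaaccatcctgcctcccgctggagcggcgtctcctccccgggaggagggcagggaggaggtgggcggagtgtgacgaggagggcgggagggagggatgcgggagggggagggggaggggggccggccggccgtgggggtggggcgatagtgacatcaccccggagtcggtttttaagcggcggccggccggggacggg
The sequence is the 250 bases before the listed SLC6A8 start, shown because SLC6A8 had the largest difference in its family. It is in lower case throughout, since it holds no match to any of the motifs searched.

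The other SLC6 genes gave small differences or none that passed. SLC6A9, the glycine carrier GlyT1, read 5.06, 5.23 and 5.29 in PC-3/Mc and 5.24, 5.20 and 5.24 in PC-3/S, means just above background in both lines (adjusted p = 0.787 by limma). SLC6A14, a broad carrier found in lung and gut, read 3.11, 3.16 and 3.22 in PC-3/Mc and 2.94, 3.28 and 2.96 in PC-3/S, under background in both lines (adjusted p = 0.447 by limma). SLC6A15, a carrier of branched-chain amino acids known from brain, read 4.28, 4.06 and 4.35 in PC-3/Mc and 3.95, 3.95 and 4.11 in PC-3/S, under background in both lines (0.23, adjusted p = 0.0774 by limma). It passed when arrays were quantile-normalized, centred on their medians or used with PC-3/Mc replicate 2 dropped (adjusted p = 0.0486, 0.0372 and 0.022 by limma). The monoamine carriers SLC6A2, SLC6A3 and SLC6A4 were not called. The orphan carrier SLC6A16 was called higher by 0.40 and the GABA carrier SLC6A13 lower by a difference of -0.39, the first under background in both lines and the second at a mean of 5.19 in PC-3/S; both were chosen after their values were seen.

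In SLC38, the neighbouring genes SLC38A1 and SLC38A2 differed in opposite directions. Both encode sodium-coupled carriers of system A, which concentrate glutamine, alanine and other small neutral amino acids, and SLC38A2 is known to be induced when amino acids run short. SLC38A2 read 11.54, 11.69 and 11.41 in PC-3/Mc and 12.84, 12.79 and 12.93 in PC-3/S, 2.48-fold lower in PC-3/Mc with no overlap (-1.31 ± 0.09, adjusted p = 5.92e-07 by limma). All 3 of its probe sets were lower, by differences of -1.52 to -1.31; all end in _x_at or _s_at. SLC38A1 read 11.61, 11.47 and 11.48 against 11.29, 11.33 and 11.24, slightly higher on every PC-3/Mc array (0.24 ± 0.08, adjusted p = 0.0316 by limma). That call was lost with quantile normalization (adjusted p = 0.068 by limma) and when PC-3/Mc replicate 1 was left out or any PC-3/S array, numbered 1, 2 or 3 (adjusted p = 0.103, 0.0849, 0.0569 and 0.0973 by limma). Its dimmer probe sets differed by 0.73 and 0.43 and were called, and a further one lay under background.

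The upstream sequences of this pair are shown because the genes lie next to each other on chromosome 12 on the same strand, with 0 protein-coding genes between them in the RefSeq order, and differed in opposite directions. Each is the 250 bases before the most upstream listed start, and neither holds a match to the motifs searched. Letters outside the listed windows were not searched, so a motif elsewhere in these genes would be missed.
SLC38A1 (chr12:46267988-46268237, - strand): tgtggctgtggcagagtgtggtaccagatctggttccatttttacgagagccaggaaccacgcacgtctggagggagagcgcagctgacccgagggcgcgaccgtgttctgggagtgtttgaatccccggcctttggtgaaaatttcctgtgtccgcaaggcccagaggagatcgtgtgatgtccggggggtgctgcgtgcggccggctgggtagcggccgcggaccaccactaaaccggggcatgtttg
SLC38A2 (chr12:46372774-46373023, - strand): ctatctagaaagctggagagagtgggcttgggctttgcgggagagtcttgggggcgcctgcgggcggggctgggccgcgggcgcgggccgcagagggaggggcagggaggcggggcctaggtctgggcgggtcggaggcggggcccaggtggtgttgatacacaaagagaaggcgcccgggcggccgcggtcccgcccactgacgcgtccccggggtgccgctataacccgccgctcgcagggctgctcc
Their other neighbour, SLC38A4, a carrier known from liver and placenta, read 3.36 and 3.30, under background in both lines. The system N carriers SLC38A3 and SLC38A5 stayed there too, SLC38A5 at 4.57, 4.65 and 4.50 in PC-3/Mc and 4.29, 4.59 and 4.38 in PC-3/S (adjusted p = 0.222 by limma).

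Lysosomal and less studied SLC38 carriers went both ways. SLC38A9, the lysosomal carrier that reports arginine to mTORC1, read 7.59, 7.76 and 7.39 in PC-3/Mc and 6.41, 6.36 and 6.40 in PC-3/S, 2.28-fold higher in PC-3/Mc (1.19 ± 0.10, adjusted p = 2.34e-06 by limma). Its other probe set lay under background, and the mean of both gave 0.66. SLC38A7, a lysosomal glutamine carrier, was higher by 0.39 ± 0.07 (adjusted p = 0.0011 by limma) and 3 of its 4 probe sets were called. SLC38A6 read 6.68, 6.80 and 6.61 in PC-3/Mc and 7.71, 7.50 and 7.90 in PC-3/S, lower on every PC-3/Mc array (-1.0 ± 0.11, adjusted p = 1.66e-05 by limma). SLC38A12 was lower as well (-0.87 ± 0.08, adjusted p = 8.05e-06 by limma), while SLC38A10 (0.15) and SLC38A11 (0.05) were not called. SLC38A7 and SLC38A12 were chosen after their values were seen.

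SLC43 also held neighbours that differed in opposite directions. SLC43A1 (LAT3), a carrier of leucine and other large neutral amino acids first described as overexpressed in prostate cancer, read 6.87, 6.71 and 6.64 in PC-3/Mc and 6.31, 6.33 and 6.51 in PC-3/S. It was 1.28-fold higher in PC-3/Mc without overlap (0.36 ± 0.09, adjusted p = 0.00795 by limma). SLC43A3, a relative that carries purine bases rather than amino acids, read 4.62, 4.72 and 5.07 in PC-3/Mc, under background, and 7.10, 7.05 and 6.96 in PC-3/S. It was at least 3.63-fold lower in PC-3/Mc (measured difference -2.23 ± 0.11, adjusted p = 5.85e-08 by limma), and its second probe set differed by -1.59. SLC43A2 (LAT4) read 6.05, 6.06 and 5.88 in PC-3/Mc and 6.19, 5.81 and 6.07 in PC-3/S and was not called (adjusted p = 0.87 by limma).
SLC43A1 (chr11:57515703-57515952, - strand): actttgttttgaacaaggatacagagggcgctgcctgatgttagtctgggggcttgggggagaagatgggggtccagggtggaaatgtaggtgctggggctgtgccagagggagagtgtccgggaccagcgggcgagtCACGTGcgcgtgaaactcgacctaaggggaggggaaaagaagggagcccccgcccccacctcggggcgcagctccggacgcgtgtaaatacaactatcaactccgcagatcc
This sequence of SLC43A1, the 250 bases before the more upstream of 2 listed starts, is shown for its E-box, in capitals, 112 bases before the start. In the RefSeq order 1 protein-coding gene lies between SLC43A1 and SLC43A3 on chromosome 11.

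Of the SLC36 carriers, SLC36A1 (PAT1), which exports small amino acids from lysosomes, read 7.43, 7.45 and 7.50 in PC-3/Mc and 7.81, 7.86 and 7.67 in PC-3/S. It was lower on every PC-3/Mc array (-0.32 ± 0.08, adjusted p = 0.00748 by limma). Its dimmer probe set differed by 0.13, and the call was lost when both were averaged (-0.09, adjusted p = 0.444 by limma). SLC36A4 (PAT4) read 8.25, 8.30 and 8.02 in PC-3/Mc and 8.16, 8.16 and 8.17 in PC-3/S, overlapped between the lines and was not called (0.03 ± 0.09, adjusted p = 0.849 by limma).

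Probe sets were also tested one by one. Fitted over all 54613 probe sets other than controls, 28 of the 138 member probe sets were higher in PC-3/Mc, 16 lower and 94 not called, so that 31.9% were called against 35.9% of all probe sets (18.4% higher and 17.5% lower). At or under background in both lines were 69 of the 138. Of 36 members with more than 1 probe set, 0 had probe sets called in opposite directions, and 11 had at least 2 called. Only these 11 could have shown opposite calls, and the share over all genes was not counted. The brightest SLC38A1 probe set, which stands for the gene, was not called in this fit (adjusted p = 0.0515 by limma).

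**Figure D4:**
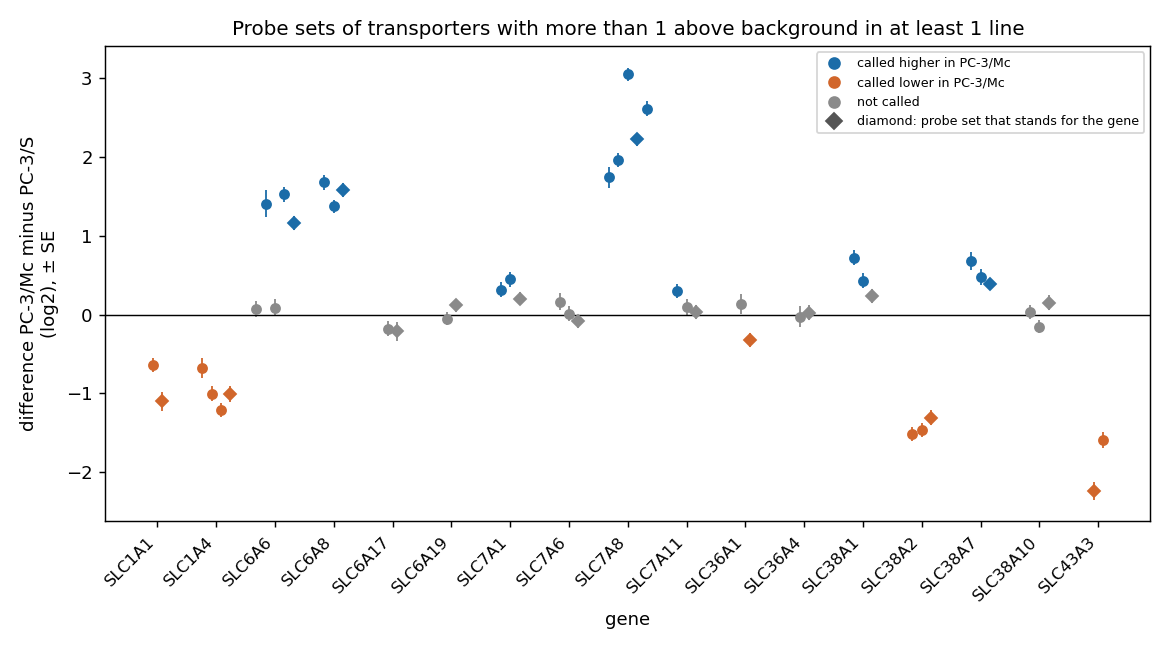
Difference between the lines on the log2 scale, with SE over 3 arrays per line, for every probe set above background in at least 1 line of members with more than 1 such probe set; diamonds mark the probe set that stands for the gene. All probe sets of SLC7A8 and SLC6A8 lie on the PC-3/Mc side and all of SLC1A4, SLC38A2 and SLC43A3 on the PC-3/S side.

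The other genes of amino acid supply were counted in 5 lists. Of all genes 45.9% were called, 23.2% higher and 22.7% lower, and of those above background in at least 1 line 64.2%. Called were 73.9% of the regulators of carrier transcription, 55.9% of the enzymes and 70.3% of the mTORC1 sensing genes. For other carriers the share was 55.6%, and for carrier partners 63.6%. The list of regulators of carrier transcription also holds the enzyme CHAC1 and kinases such as EIF2AK3. Its genes were mostly lower in PC-3/Mc, with 14 of 23 measured genes lower and 3 higher (median -0.34). ATF4, which switches on carriers and synthetases when amino acids run short, was lower by a small difference (-0.25 ± 0.07, adjusted p = 0.0154 by limma). Its partners and targets CHAC1, a glutathione-degrading enzyme (-2.72 ± 0.09), ATF3 (-2.11 ± 0.11) and DDIT3, also called CHOP (-2.04 ± 0.10), were lower by more, as was BACH1, a repressor of antioxidant genes (-1.83 ± 0.14). MYC was the largest of the 3 higher (1.70 ± 0.07). Within the same list CEBPG was higher (0.54 ± 0.08) and CEBPB lower (-1.10 ± 0.08). TRIB3 was lower by a small difference (-0.31 ± 0.09), and ATF5 was not called (-0.17). ATF4, CEBPG, CEBPB, TRIB3 and ATF5 were chosen after their values were seen.

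Enzymes acting on imported amino acids were more often higher than lower, with 15 of 34 higher, 4 lower and 15 not called (median 0.10). The branched-chain aminotransferase BCAT1 lay at least 30.7-fold above its PC-3/S level, and CBS, which makes cystathionine on the way to cysteine, at least 9.44-fold. ASS1, an enzyme of arginine synthesis, was 9.27-fold higher, and GLDC, which breaks down glycine, 5.59-fold. Asparagine synthetase (ASNS) was lower (-1.16 ± 0.09, adjusted p = 1.39e-06 by limma), a call that a choice without _x_at or _s_at probe sets did not keep (-0.21, adjusted p = 0.168 by limma).

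Genes of amino acid sensing by mTORC1 split, 12 higher and 14 lower of 37 (median -0.04). RRAGD, a GTPase that recruits mTORC1 to lysosomes, was 4.37-fold higher in PC-3/Mc, followed by the mTOR complex subunit MLST8 (1.35 ± 0.09), NPRL3 (1.17 ± 0.09) and SEH1L (1.09 ± 0.10). The folliculin partner FNIP1 (-1.21 ± 0.12), the arginine sensor CASTOR1 (-1.16 ± 0.09) and the leucine sensor SESN2 (-1.03 ± 0.11) were lower. CASTOR1 lay under background in PC-3/Mc.

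Other amino acid carriers outside these families gave 10 higher and 5 lower of 27 (median 0.15). The aromatic amino acid carrier SLC16A10 exceeded its PC-3/S level at least 2.29-fold, the vesicular monoamine carrier SLC18A2 at least 2.07-fold, and the mitochondrial ornithine carrier SLC25A15 2.55-fold. Of 11 partners and trafficking factors of carriers, 6 were lower and 1 higher (median -0.39). Collectrin (CLTRN), a partner of SLC6 carriers in kidney, was at least 3.84-fold lower in PC-3/Mc, and NEDD4L, a ubiquitin ligase acting on membrane carriers, 3.3-fold lower.

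**Figure D5:**
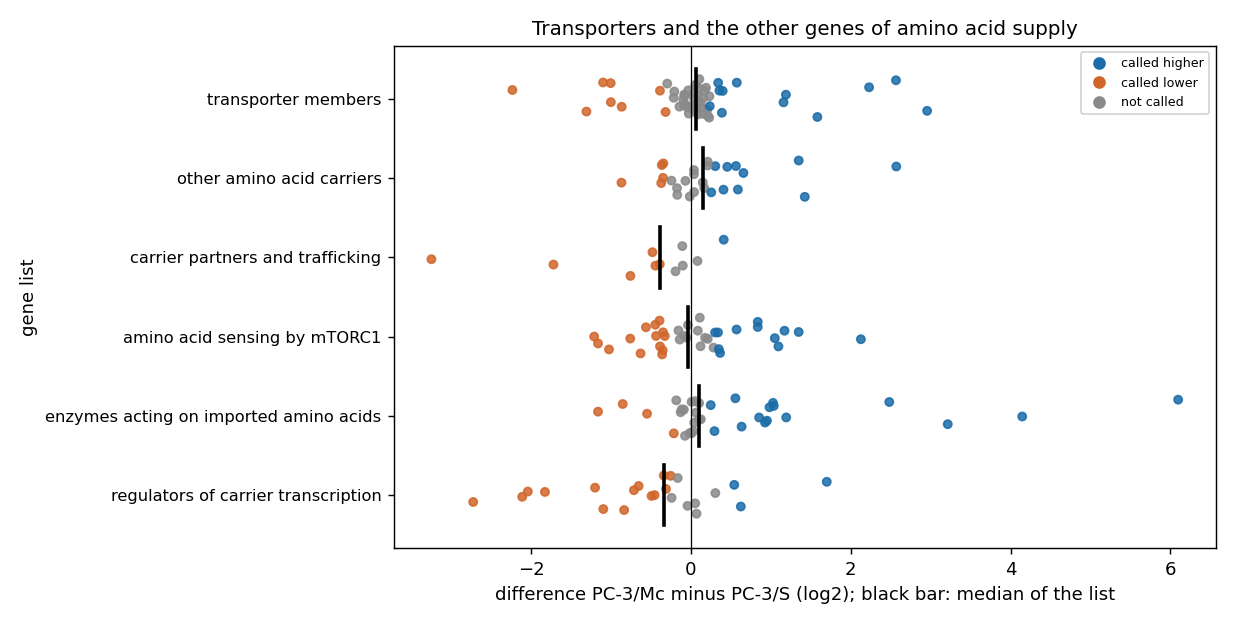
Difference between the lines on the log2 scale for each gene of the transporter members and of 5 lists of amino acid supply, coloured by call, with the median of each list as a black bar. The medians of the regulators (-0.34) and of the partners (-0.39) lie on the PC-3/S side, and the others lie between -0.04 and 0.15.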

How the data were processed

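RNA of 3 samples each of PC-3/Mc and PC-3/S was hybridised to one-colour Affymetrix arrays after standard biotin labelling, per the labels' protocols. The authors deposited processed log2 expression values for 54675 probe sets; the scale was read from their range (2.59 to 14.45), and the sources used here do not name the background correction, normalization or software. Array medians lay between 4.98 and 5.09, so the values were used as deposited, and the number of arrays limits the precision (median SE of a difference 0.092).

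Of the probe sets other than 62 controls, 41091 had 1 gene symbol in the platform annotation, 1801 several and 11721 none, and 41037 matched RefSeq (GRCh38.p14) by gene ID. A gene is its probe set with the highest mean. PC-3/Mc was compared with PC-3/S by limma 3.58.1 (lmFit, eBayes, two-sided, no covariates) in R 4.3.3 over all genes, and separately over all probe sets other than controls, with Benjamini-Hochberg adjustment; the fit was tested on simulated data. Where the dimmer line's mean was at or under 5.18, folds are lower bounds, with each of its arrays raised to 5.18.

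Values on every array are given for members called at least 2-fold without overlap and at or above the median of all genes (5.98) in the higher line, and for anchor genes; lists name up to 4 such genes per direction. Members and lists were chosen with earlier results of these data known. Alternatives were quantile normalization, median centring, a level filter, other choices of probe set, a prior trend, a replicate block and leaving out each array. Promoter letters were searched in Python 3.11.15.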

Additional observations from a re-analysis of the deposited data

How the results depend on the processing

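None of the results reversed under the 14 alternatives, and 22 of the 27 named transporters kept the same side of the threshold under each alternative that gave them a value. Leaving out probe sets ending in _x_at or _s_at, which can read related transcripts, leaves 11 members without a value: SLC3A2, SLC6A9, SLC6A20, SLC7A5, SLC7A6, SLC7A7, SLC7A9, SLC7A10, and SLC38A2, SLC38A12 and SLC43A3, which were lower as reported. It gave 5 members lower in PC-3/Mc in place of 8, 2 in place of 5 at least 2-fold lower, 1 in place of 3 lower in SLC38 and 0 in place of 1 in SLC43. It also gave 6 higher and 8 lower in mTORC1 sensing (12 and 14 as reported) and 2 lower in place of 4 among the enzymes. With it SLC1A4 differed by -0.37. Averaging all probe sets of a gene left 4 members at least 2-fold higher in place of 6 and 3 at least 2-fold lower, 0 lower in SLC36 and 2 lower in place of 5 among other carriers. Centring arrays on their medians gave 3 members at least 2-fold lower and 5 higher in place of 3 in SLC7; leaving out genes below the 40th percentile left 0 lower in SLC6.

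Leaving out single arrays gave 11 to 15 members higher and 8 to 10 lower, and 3 to 5 at least 2-fold lower (3 without PC-3/Mc replicate 3, the cause was not tested). In SLC6 it gave 1 to 3 lower (3 without PC-3/Mc replicate 3 and 2 without PC-3/S replicate 3). Same-numbered arrays of the lines did not deviate together (r = -0.02, -0.259 and -0.38), so the numbers do not pair them. With a replicate block 11 members were higher and 8 lower, and SLC38A1 was not called (adjusted p = 0.0725 by limma). Over all genes the block gave 4184 higher and 3906 lower, against 4585 and 4498 as deposited. Centring arrays on their medians gave 4932 higher and 3852 lower over all genes. The shares of all genes called higher and lower therefore depend in part on normalization. Differences near or under 5.18 are limited by background, and 3 arrays a line limit the precision.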
